A study of Mus musculus with 75 samples.

Results

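The 10 genes described here handle calcium or magnesium in the distal nephron, or are made there: Calb1, S100g, Pvalb, Klk1, Trpv5, Trpm6, Slc8a1, Atp2b1, Tmem207 and Casr. They are 10 of the 32245 genes in a count table from whole mouse kidneys, and their rows were taken by gene symbol. The set was chosen on measured values. Calb1, S100g, Pvalb and Klk1 were picked because they were higher in obstructed kidneys of treated or knockout mice, and Tmem207 because it was among the largest falls. These 5 genes are therefore described without a test wherever obstructed kidneys enter. The other 5 (Trpv5, Trpm6, Slc8a1, Atp2b1 and Casr) were tested in the response to obstruction. No member was tested between treated and control obstructed kidneys alone, the contrast that chose the set. These other 5 were also tested for a difference between responses, which contains that contrast.

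RNA was taken from adult mice 3 days after unilateral ureter obstruction (UUO), from the obstructed kidney and from the contralateral kidney (CL). The study asked whether activating TIE2, a receptor of endothelial cells, changes the response to obstruction. In the ABTAA arm, mice received ABT, an antibody that binds ANGPT2 and activates TIE2 (8 IgG CL, 8 IgG UUO, 7 ABT CL and 7 ABT UUO libraries), and controls received a human IgG Fc. In the Veptp arm, floxed Veptp was deleted in endothelial cells with the tamoxifen-inducible Cdh5-CreERT2, giving 6 VeKO CL and 8 VeKO UUO libraries against 7 VeWT CL and 8 VeWT UUO libraries from noninduced littermates that also carried the Cre. In the Pdgfb arm, floxed Pdgfb was deleted with Actb-CreERT2, which acts in the whole body, with 4 libraries in each of PbWT CL, PbWT UUO, PbKO CL and PbKO UUO, and the PbWT controls carried no Cre. Mice of the Veptp and Pdgfb arms had a mixed background, the ABTAA arm used C57BL6/J mice or wild types of those crosses, and according to the methods the PbWT CL group holds kidneys of sham-operated mice, which the labels do not mark.

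Calcium left in the tubule fluid is reclaimed in the distal convoluted and connecting tubules. It enters the cell through the channel TRPV5, is carried across the cytoplasm by calbindins (Calb1 encodes calbindin-D28k and S100g calbindin-D9k), and leaves through the sodium-calcium exchanger NCX1 (Slc8a1) and the plasma membrane calcium pump PMCA1 (Atp2b1). Magnesium enters the distal convoluted tubule through TRPM6. Parvalbumin (Pvalb), another calcium buffer, marks the early part of that tubule and is also abundant in fast skeletal muscle. The calcium-sensing receptor (Casr) acts mainly in the thick ascending limb, and tissue kallikrein (Klk1), a protease that releases kinins, is made in the connecting tubule. Tmem207 encodes a small transmembrane protein.

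The promoters of 4 of the 5 genes that chose the set are shown because these genes moved together; no entry for Calb1 was in the table used. Each runs from 250 bases before to 30 bases after the RefSeq gene start (build GRCm38.p6) and reads 5′ to 3′ on the gene's own strand. S100g lies on the minus strand at chrX:162964570-162964849, Pvalb on the minus strand at chr15:78206371-78206650, Klk1 on the plus strand at chr7:44225110-44225389 and Tmem207 on the minus strand at chr16:26526742-26527021. Capitals mark a TATA box (TATAAA) or the core of an HNF1 site (GTTAAT), both searched on both strands.
S100g: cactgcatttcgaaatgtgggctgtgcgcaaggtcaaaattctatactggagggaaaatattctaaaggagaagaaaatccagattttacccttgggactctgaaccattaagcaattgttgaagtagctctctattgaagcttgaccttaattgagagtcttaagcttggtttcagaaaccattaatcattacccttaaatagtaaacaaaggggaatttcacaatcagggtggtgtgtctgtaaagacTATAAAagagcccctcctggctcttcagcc
Pvalb: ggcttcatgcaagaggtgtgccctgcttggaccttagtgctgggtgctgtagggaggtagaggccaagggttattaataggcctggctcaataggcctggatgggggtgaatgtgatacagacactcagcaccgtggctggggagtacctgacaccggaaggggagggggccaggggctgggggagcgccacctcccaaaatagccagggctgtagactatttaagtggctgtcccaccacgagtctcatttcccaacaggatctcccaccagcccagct
Klk1: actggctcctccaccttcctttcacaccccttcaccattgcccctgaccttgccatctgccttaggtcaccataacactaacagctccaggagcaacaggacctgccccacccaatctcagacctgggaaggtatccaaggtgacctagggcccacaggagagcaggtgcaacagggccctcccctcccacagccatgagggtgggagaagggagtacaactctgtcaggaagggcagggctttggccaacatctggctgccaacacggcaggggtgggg
Tmem207: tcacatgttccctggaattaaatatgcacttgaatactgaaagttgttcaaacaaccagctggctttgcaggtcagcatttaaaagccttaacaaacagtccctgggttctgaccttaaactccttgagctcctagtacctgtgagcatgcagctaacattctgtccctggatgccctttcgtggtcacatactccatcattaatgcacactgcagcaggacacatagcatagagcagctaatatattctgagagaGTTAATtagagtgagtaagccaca
TATAAA was found in S100g, starting at base 1 of the gene, and in Trpv5, among 9 members with an entry, while 13.1% of 32851 promoters of this length hold it. GTTAAT was found in Tmem207 alone, starting at base 7 of the gene, against 6.85% of promoters. Pvalb and Klk1 had neither motif in this window. These are matches of letters only. Tmem207 (chromosome 16, 26503656 to 26526769, minus strand, GRCm38) lies 20890 bases from Cldn16, a gene of paracellular magnesium transport, and the gene bodies do not overlap.

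The 75 libraries held 172827 to 2341800 counts each, and levels are given as CPM (counts scaled to the size of the library) after TMM normalization over all libraries. Library names come in 2 forms, a letter with a number (45 libraries, here plain names) and parts joined by the character _ (30 libraries, here joined names). Both forms occur in every ABTAA and Veptp group, while the Pdgfb arm has plain names only. Levels of several members differed between the forms within a group. In IgG CL, mean S100g was 2959 CPM in 4 plain-name libraries and 1086 CPM in 4 joined-name libraries, and mean Pvalb was 90.9 and 18.8 CPM. In VeWT CL, S100g was 2695 CPM in 3 plain-name and 120 CPM in 4 joined-name libraries. Beside pooled results of these arms, values within a form are given for many, though not all, cases where the direction or call of a member or named gene differs. Reads of both Xist and Y-linked genes (10 counts or more of each) were present in 22 plain-name and 2 joined-name libraries, including all 4 PbKO UUO libraries, 2 of 4 PbWT UUO libraries and 4 of 8 IgG UUO libraries. Without these libraries, a setting added once the data had been seen, members called after obstruction were 2 in place of 4 in IgG, 2 in place of 3 in VeWT and 3 in place of 4 in PbWT, and stayed at 3 in ABT and 1 in VeKO. Among the deleted genes, Ptprb, which encodes VEPTP, had 25.1, 32.8 and 42.1 CPM (lowest, median and highest) in VeKO CL against 28.1, 59.2 and 74.5 CPM in VeWT CL, a log2 fold change of -0.63 (SE 0.36) that was not called. Pdgfb was not lower in the CL libraries labelled PbKO (16.8, 17.1 and 25.0 CPM) than in PbWT CL (4.51, 8.61 and 20.0 CPM). In UUO it was 33.2 to 40.9 CPM in the libraries labelled PbKO and 43.7 to 57.6 CPM in PbWT, a log2 fold change of -0.47 (SE 0.21) that was not called either. The difference between the 2 responses of Pdgfb to obstruction was called (-1.26, SE 0.39, adjusted p = 0.046), a call lost when 12 of 16 libraries were left out one at a time. Gene-level counts may miss the loss of single exons.

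Calb1, S100g, Pvalb, Klk1 and Tmem207 were lower on average in UUO than in CL in each of the 6 pairs of groups. Calb1 was 448, 797 and 846 CPM (lowest, median and highest) in IgG CL and 17.0, 49.2 and 280 CPM in IgG UUO, with no overlap. Its log2 fold change, UUO over CL, was -3.19 (SE 0.49) in IgG, -2.55 (SE 0.56) in VeWT and -3.83 (SE 0.21) in PbWT. In the treated or knockout groups it was -1.96 (SE 0.49) in ABT, -1.55 (SE 0.56) in VeKO and -0.85 (SE 0.19) in PbKO. Within joined names the fall was not smaller in treated or knockout mice. Mean Calb1 there went from 767 to 55.4 CPM in IgG and from 834 to 45.1 CPM in ABT. In the Veptp arm it went from 367 to 37.8 CPM in VeWT and from 542 to 36.5 CPM in VeKO. In PbWT, where each group has 4 libraries, Calb1 was 598, 722, 611 and 654 CPM in CL and 34.3, 31.2, 68.9 and 42.9 CPM in UUO. In bulk tissue, fewer cells of a type and less RNA per cell cannot be told apart.

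S100g was 887, 1798 and 3635 CPM in IgG CL and 89.1, 222 and 1071 CPM in IgG UUO, where the highest UUO library, with a plain name, exceeded the lowest CL library, with a joined name. Within plain names and within joined names the ranges did not overlap. The log2 fold change was -2.68 (SE 0.56) in IgG, -1.37 (SE 0.57) in ABT, -3.52 (SE 0.24) in PbWT and -0.70 (SE 0.22) in PbKO. Within joined names mean S100g went from 1086 to 145 CPM in IgG and from 1274 to 113 CPM in ABT, so there the fall was not smaller in ABT. In the Veptp arm the pooled values had wide errors, -1.72 (SE 1.17) in VeWT and -0.61 (SE 1.20) in VeKO. Within joined names of that arm the values were -3.39 in VeWT and -4.30 in VeKO, and within plain names -1.79 and -0.94.

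Pvalb was at 0 counts in many obstructed kidneys. It had 8.36, 51.1 and 115 CPM in IgG CL, and 7 of 8 IgG UUO libraries held no count. All 7 joined-name UUO libraries of the ABTAA arm were at 0, where 3 counts correspond to 3.57 to 10.8 CPM, and the 8 of the Veptp arm held at most 2 counts. In PbWT it went from 32.7, 49.0, 35.6 and 47.5 CPM in CL to 1.27, 0.60, 0.40 and 2.93 CPM in UUO (1 to 3 counts a library). The log2 fold change was -3.38 (SE 1.00) in IgG, -2.51 (SE 0.92) in VeWT and -5.14 (SE 0.56) in PbWT, against -1.30 (SE 0.81) in ABT, -1.10 (SE 0.99) in VeKO and -0.43 (SE 0.34) in PbKO. In plain-name VeKO libraries the order was the other way, with 8.43 and 21.5 CPM in 2 CL libraries and 26.9 to 41.8 CPM in 4 UUO libraries. A list of 8 skeletal muscle genes summed to 51.8 to 122 CPM in PbWT CL, 3.90 to 26.0 CPM in PbWT UUO, 108 to 137 CPM in PbKO CL and 6.29 to 89.5 CPM in PbKO UUO, so it was lower in UUO as Pvalb was, and its part was not tested.

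Klk1 was 1883, 1948 and 2441 CPM in IgG CL and 173, 263 and 750 CPM in IgG UUO, without overlap. UUO over CL, it changed by -2.68 (SE 0.38) on the log2 scale in IgG, -2.05 (SE 0.51) in VeWT and -3.74 (SE 0.27) in PbWT. It was -1.47 (SE 0.38) in ABT, -1.33 (SE 0.52) in VeKO and -0.84 (SE 0.25) in PbKO. Within joined names mean Klk1 went from 2019 to 296.5 CPM in IgG and from 1791 to 205.3 CPM in ABT. In the Veptp arm it went from 690.8 to 114.8 CPM in VeWT and from 1304 to 148.7 CPM in VeKO, so in joined names the fall was not smaller in ABT or VeKO. Klk1 has near-identical copies (the Klk1b genes), between which reads may have been split, so its own level is uncertain. Tmem207 went from 28.0, 45.7 and 87.0 CPM in IgG CL to 2.77, 4.09 and 13.7 CPM in IgG UUO, the latter on 1 to 5 counts a library. Its log2 fold change was -3.31 (SE 0.39) in IgG, -2.74 (SE 0.50) in VeWT and -2.60 (SE 0.37) in PbWT, and -2.21 (SE 0.35) in ABT, -2.21 (SE 0.54) in VeKO and -0.84 (SE 0.36) in PbKO. Of 9579 genes tested in the ABTAA arm, Pvalb had rank 4, Tmem207 rank 5 and Calb1 rank 7 from the lowest log2 fold change in IgG. Tmem207 had rank 14 of 11916 in VeWT and 49 of 10923 in PbWT. Tmem207 was chosen for its fall, and Calb1 and Pvalb on obstructed libraries, so these ranks follow in part from the choice. The rank of Pvalb in IgG rests on 7 of 8 UUO libraries without a count.

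**Figure D1:**
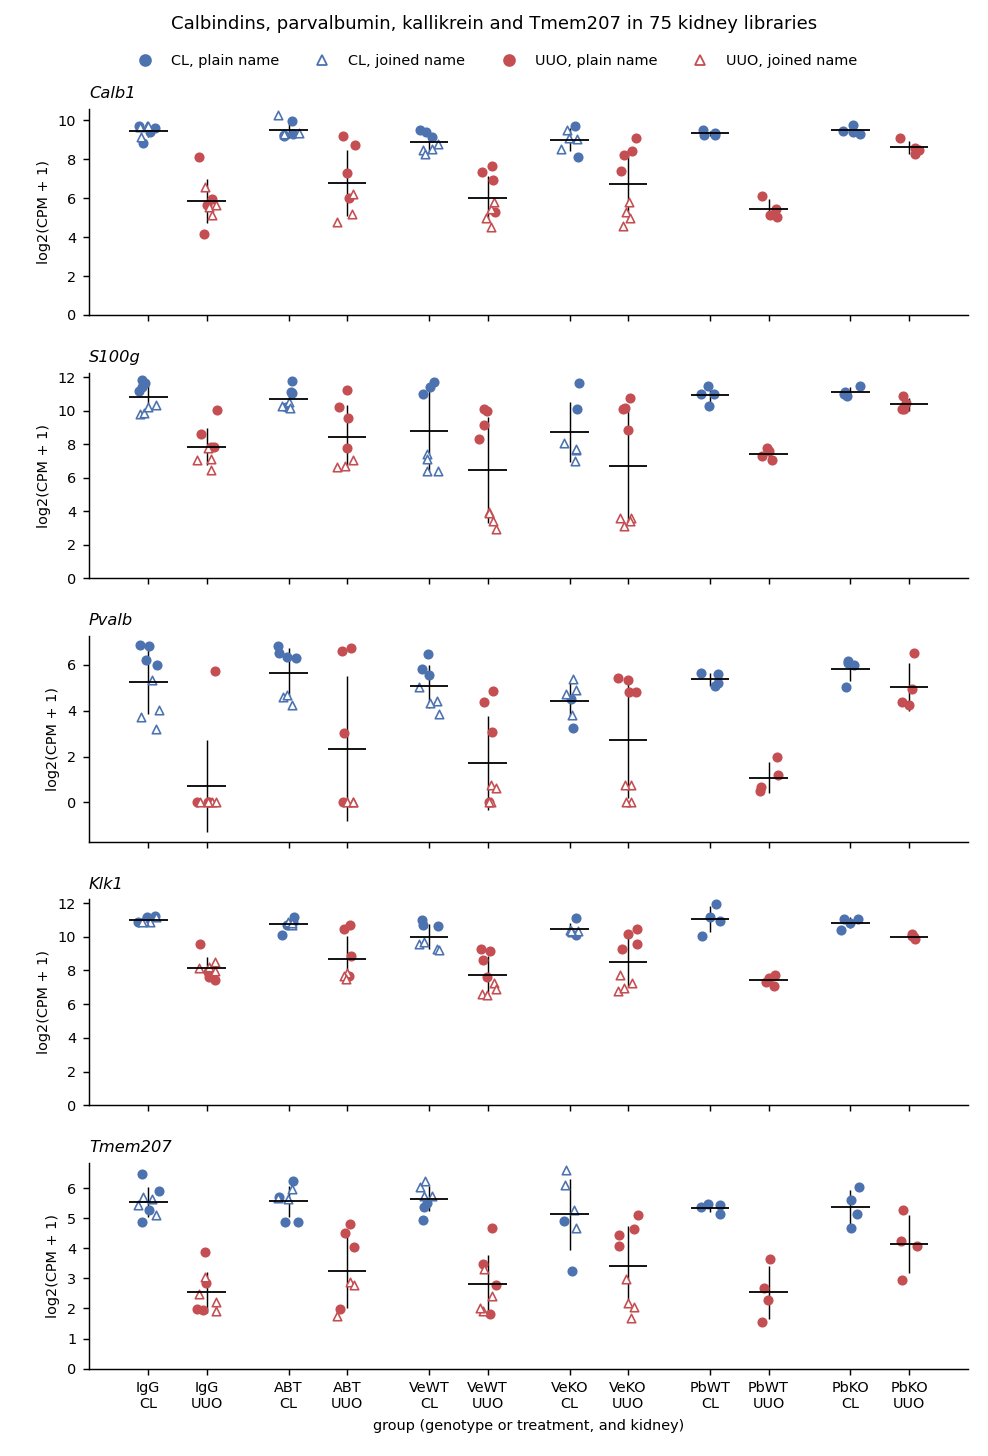
Levels of the 5 genes that chose the set, as log2(CPM + 1), in each of the 75 libraries by group. Circles are plain-name and triangles joined-name libraries, bars are the group mean and vertical lines 1 SD. The obstructed libraries labelled PbKO lie near their CL libraries, while PbWT UUO lies far below, and in the other arms the high UUO libraries are circles.

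The genes of the transporters that carry calcium out of the cell differed in direction in IgG and PbWT. Slc8a1, the exchanger, was 203, 261 and 383 CPM in IgG CL and 39.0, 81.4 and 121 CPM in IgG UUO, without overlap. It fell in 5 of 6 groups by edgeR's quasi-likelihood test: by 1.78 (SE 0.31) on the log2 scale in IgG (adjusted p = 1.90e-05), 1.56 (SE 0.31) in ABT (adjusted p = 0.000276), 1.51 (SE 0.47) in VeWT (adjusted p = 0.0232), 1.90 (SE 0.15) in PbWT (adjusted p = 5.45e-10) and 1.03 (SE 0.15) in PbKO (adjusted p = 9.06e-05). In VeKO it did not pass (-1.40, SE 0.49, adjusted p = 0.0763). It became -1.98 (adjusted p = 0.00500) without VeKO UUO replicate 4, and -2.75 (adjusted p = 6.49e-12) with the number in the library name as a block. Only 4 of the 8 numbers carry the same genotype in both kidneys, so the block may not pair kidneys of the same mouse. Slc8a1 was also called in VeKO with the form of name as a covariate (adjusted p = 1.99e-06) and with all 12 groups in 1 fit (adjusted p = 0.00494). The same held without TMM (adjusted p = 0.0276), with no filter (adjusted p = 0.0414) and with Xist as a covariate (adjusted p = 0.0255). The VeWT call was lost without VeWT CL replicate 2 (-1.12, adjusted p = 0.0938) and without libraries with reads of Xist and Y-linked genes (-1.60, adjusted p = 0.0650). Within joined names of VeKO it was -2.81 (adjusted p = 8.79e-09) and within plain names -0.82 (adjusted p = 0.744).

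Atp2b1, the pump, rose in PbWT from 103, 79.9, 99.4 and 90.7 CPM in CL to 158, 180, 149 and 153 CPM in UUO, with no overlap (by 0.78 on the log2 scale, SE 0.13, adjusted p = 4.03e-05). It rose in IgG by 0.39 (SE 0.14, adjusted p = 0.0322), a call lost when any of 7 single libraries was left out (IgG CL replicates 2, 3, 5 and 7 and IgG UUO replicates 1, 5 and 6, adjusted p = 0.0533 to 0.0840), within joined names (0.35, adjusted p = 0.145) and within plain names (0.46, adjusted p = 0.134). In ABT (0.23, SE 0.15), VeWT (0.60, SE 0.27), VeKO (0.39, SE 0.29) and PbKO (-0.27, SE 0.14) it did not pass the test. The VeWT call was gained within plain names (0.69, adjusted p = 0.0345), with the form of name as a covariate (0.46, adjusted p = 0.00569), with all 12 groups in 1 fit (0.58, adjusted p = 0.0209) and without TMM (0.72, adjusted p = 0.0103). The obstructed libraries labelled PbKO had 86.2, 103, 98.6 and 96.6 CPM, all under those of PbWT.

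Trpv5, the entry channel, rose in the 3 control groups. It was 10.5, 26.7 and 64.1 CPM in IgG CL and 48.2, 53.0 and 65.5 CPM in IgG UUO, and the ranges overlapped through 1 CL library. It rose by 0.85 (SE 0.28, adjusted p = 0.0166) in IgG, 1.55 (SE 0.24, adjusted p = 3.39e-05) in VeWT and 0.85 (SE 0.23, adjusted p = 0.00526) in PbWT. In VeWT the highest CL library had 27.0 CPM and the lowest UUO library 37.2 CPM. In ABT (0.51, SE 0.29), VeKO (0.64, SE 0.25) and PbKO (0.63, SE 0.29) it did not pass. The ABT call was gained without ABT CL replicate 5 (0.79, adjusted p = 0.0304), and the VeKO call with the block (0.79, adjusted p = 0.0105) and within joined names (0.84, adjusted p = 0.0374). The Trpv5 call in IgG was lost within joined names (0.46, adjusted p = 0.264) and without libraries with reads of Xist and Y-linked genes (0.72, adjusted p = 0.0880). Trpm6, the magnesium channel, was low, 14.0 to 30.3 CPM in IgG CL and 4.15 to 32.3 CPM in IgG UUO on 2 to 14 counts. It fell in ABT by 1.35 (SE 0.36, adjusted p = 0.00441), from 6.60, 21.3 and 52.2 CPM to 3.88, 9.75 and 12.4 CPM, and passed the test in no other group (log2 fold changes of -0.59 to 0.02). The ABT call of Trpm6 was lost within joined names (-1.52, adjusted p = 0.0639), and with the block it was not fitted, since it did not pass the filter on low counts.

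Casr fell in all 6 groups, by 1.39 (SE 0.28) on the log2 scale in IgG (adjusted p = 0.000143), 0.83 (SE 0.27) in ABT (adjusted p = 0.0209), 1.09 (SE 0.28) in VeWT (adjusted p = 0.00550), 1.75 (SE 0.30) in VeKO (adjusted p = 0.000323), 1.34 (SE 0.29) in PbWT (adjusted p = 0.000615) and 1.16 (SE 0.30) in PbKO (adjusted p = 0.0195). In PbWT it was 15.8, 19.6, 34.1 and 23.2 CPM in CL and 7.62, 7.80, 10.8 and 8.78 CPM in UUO. The ABT call was lost without ABT UUO replicate 6 (-0.66, adjusted p = 0.0747), with the block (-1.16, adjusted p = 0.0567), without TMM (-0.69, adjusted p = 0.0672) and within plain names (-0.55, adjusted p = 0.316), and the VeWT call of Casr without TMM (-0.95, adjusted p = 0.0643). Without libraries with reads of Xist and Y-linked genes the PbWT call of Casr was lost (-0.78, adjusted p = 0.171). The PbKO call was lost without PbKO CL replicate 2 (-1.07, adjusted p = 0.0610) or PbKO UUO replicate 4 (-0.85, adjusted p = 0.112). With all 12 groups in 1 fit the PbKO calls of Casr (adjusted p = 0.119) and Slc8a1 (adjusted p = 0.482) and the PbWT call of Trpv5 (adjusted p = 0.0686) were lost. Without name numbers 3, 4, 7 and 8 Casr lost its calls in VeWT (-1.10, adjusted p = 0.0762) and VeKO (-1.59, adjusted p = 0.0638), and Slc8a1 its call in VeWT (-1.47, adjusted p = 0.0827).

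Counted over the 5 tested members, 4 were called in IgG (2 higher, 2 lower), 3 in ABT (3 lower), 3 in VeWT (1 higher, 2 lower), 1 in VeKO (lower), 4 in PbWT (2 higher, 2 lower) and 2 in PbKO (2 lower). Called means an adjusted p under 0.05 over all genes tested in the arm. Over all genes tested, 34.5% were called in IgG (16.3% higher, 18.2% lower), 25.1% in ABT (12.6% and 12.5%), 18.4% in VeWT (10.0% and 8.38%), 7.95% in VeKO (4.47% and 3.47%), 37.3% in PbWT (17.9% and 19.4%) and 6.35% in PbKO (3.94% and 2.42%). With so few members the counts are a description.

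**Figure D2:**
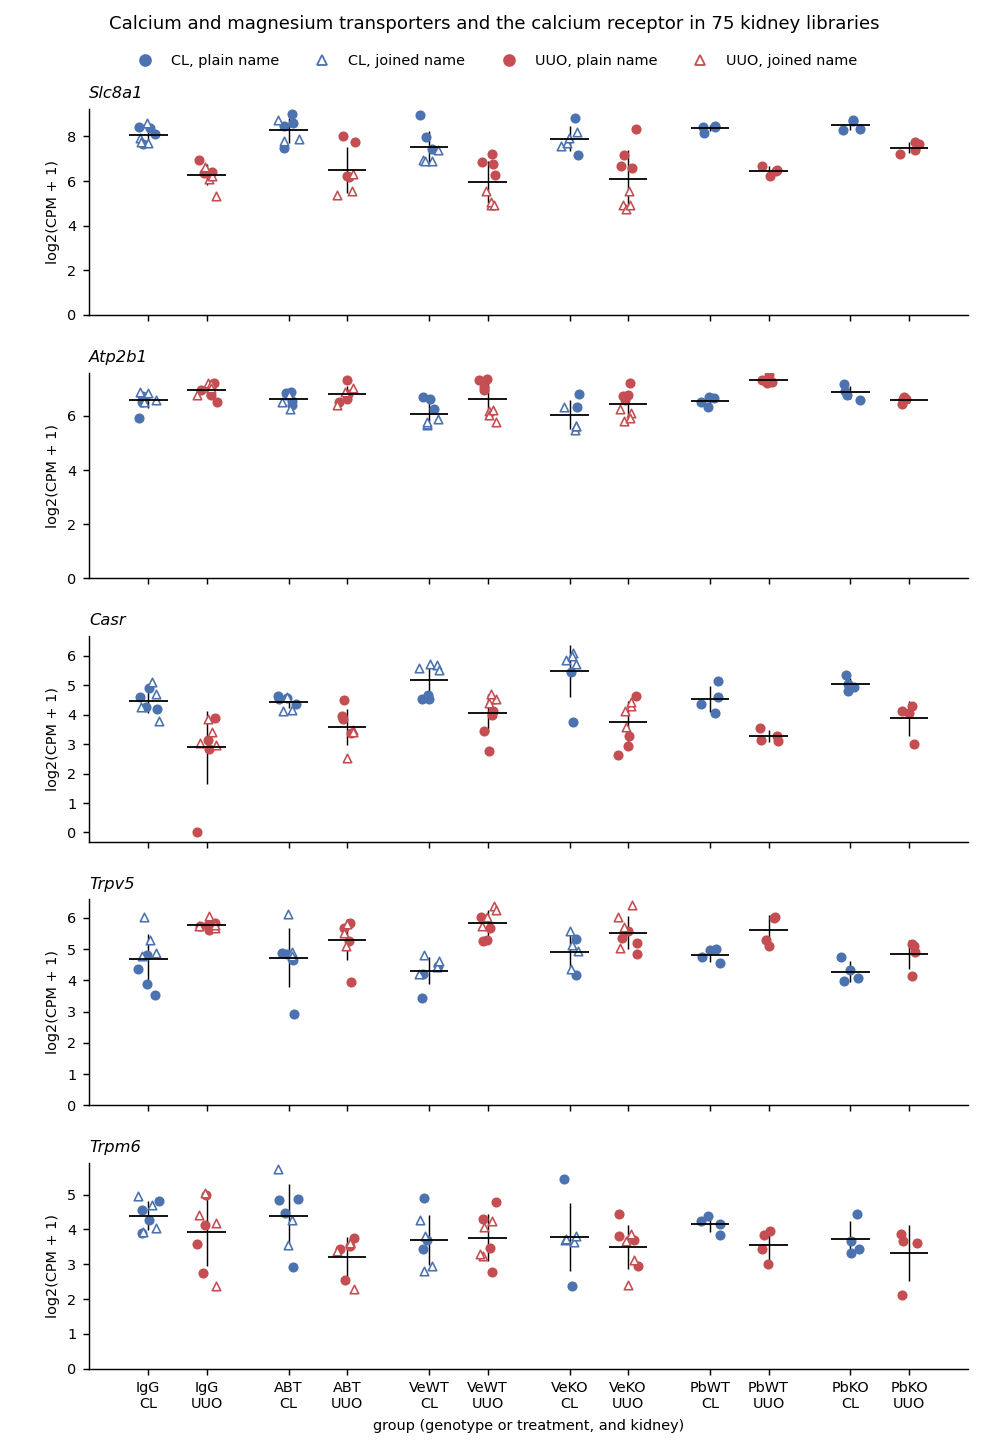
Levels of the 5 members that were tested, as log2(CPM + 1), in each of the 75 libraries by group, with symbols, bars and lines as in the plot of the buffers. Slc8a1 and Casr are lower and Trpv5 higher in UUO, and Atp2b1 in the obstructed libraries labelled PbKO sits below PbWT UUO.

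**Figure D3:**
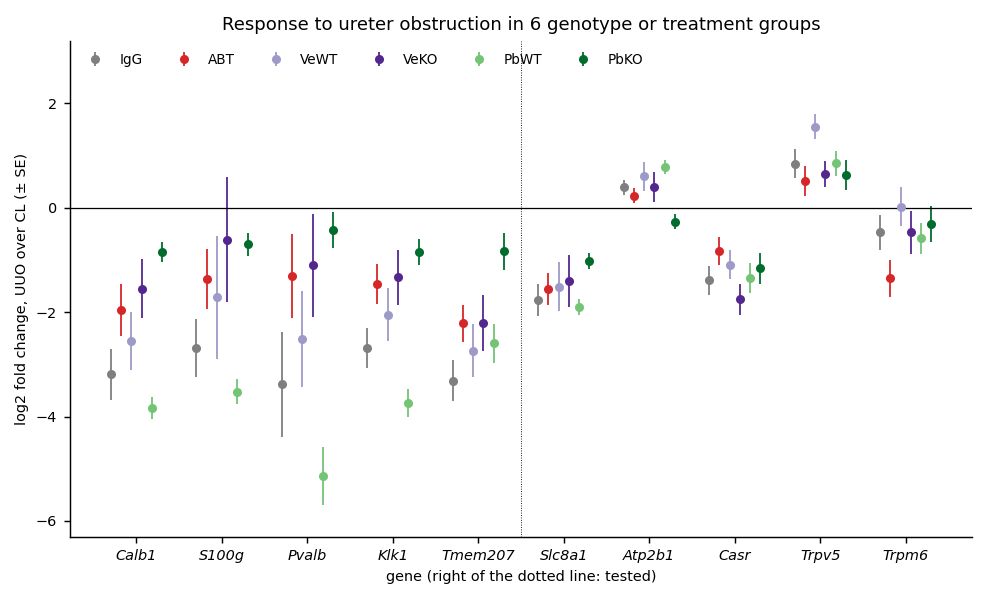
Log2 fold change of UUO over CL for the 10 members in the 6 groups, with 1 SE as the vertical line. For Calb1, S100g, Pvalb, Klk1 and Tmem207 the pooled fall is larger in each control group than in its treated or knockout counterpart, a contrast that chose the first 4 of them. Within joined names, which are not drawn apart here, the means of Calb1, S100g and Klk1 go the other way in the ABTAA and Veptp arms. To the right of the dotted line Slc8a1 and Casr lie below 0 in all 6 groups.

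Between obstructed kidneys, the libraries labelled PbKO held more Calb1, S100g, Pvalb and Klk1 than PbWT in every library. Calb1 was 351, 308, 380 and 549 CPM in PbKO UUO against the 31.2 to 68.9 CPM of PbWT UUO. S100g was 1078, 1112, 1423 and 1908 CPM against 159, 193, 219 and 134 CPM. Pvalb was 19.9, 18.0, 30.0 and 91.9 CPM on 6 to 117 counts, against at most 2.93 CPM. Klk1 was 1048, 921, 1160 and 997 CPM against 159, 189, 210 and 132 CPM. In these 4 genes the groups did not overlap. The log2 fold changes, PbKO over PbWT, were 3.15 (SE 0.21) for Calb1, 2.97 (SE 0.23) for S100g, 5.25 (SE 0.55) for Pvalb and 2.58 (SE 0.26) for Klk1. For Pvalb the PbWT side rests on 1 to 3 counts a library.

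Tmem207 was 6.63, 15.8, 18.0 and 37.7 CPM in PbKO UUO and 3.81, 5.40, 11.6 and 1.95 CPM in PbWT UUO, overlapping, with a log2 fold change of 1.77 (SE 0.40). Slc8a1 was higher without overlap (199, 167, 213 and 145 CPM against 73.7, 90.6, 102 and 86.8 CPM, log2 fold change 1.02, SE 0.15), and Atp2b1 was lower without overlap (-0.72, SE 0.13). Trpv5 (-0.69, SE 0.23), Casr (0.64, SE 0.31) and Trpm6 (0.00, SE 0.32) overlapped. So 6 of 10 members did not overlap between these groups, where 22.3% of the 10923 genes tested did not overlap and 18.6% were called (12.0% higher, 6.58% lower), in a contrast that the choice of members used. All 4 libraries labelled PbKO UUO held reads of both Xist and Y-linked genes, as did 2 of 4 PbWT UUO libraries, and without such libraries no PbKO UUO library is left. The labels do not say whether such a library holds RNA of 1 animal, the source of these reads was not tested, and n counts libraries here.

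In the ABTAA arm, values within plain names and within joined names differed in sign for several members. Calb1 in the 4 plain-name ABT UUO libraries was 574, 426, 62.4 and 154 CPM, against 61.4, 280, 17.0 and 49.6 CPM in IgG UUO. Of these, the libraries without reads of both Xist and Y-linked genes (574 and 426 CPM in ABT, 280 CPM in IgG) were higher in Calb1 than those with such reads (2 of ABT and 3 of IgG). S100g (1071 to 2398 against 218 to 741 CPM), Klk1 (749.7 to 1669 against 173 to 473 CPM) and Pvalb (52.2 to 106 against 0 to 7.20 CPM) split the same way. In joined-name libraries it was 74.2, 26.2 and 34.9 CPM in ABT and 93.4, 45.6, 33.9 and 48.8 CPM in IgG. The log2 fold change of ABT over IgG was thus 1.50 (SE 0.53) within plain names and -0.21 (SE 0.35) within joined names, and 1.28 (SE 0.50) pooled. Both sets overlapped, and whether the forms differ was not tested. The pooled value moved to 0.67 without ABT UUO replicate 1 and to 1.90 without IgG UUO replicate 2. S100g (1.22, SE 0.48 and -0.32, SE 0.24), Klk1 (1.41, SE 0.44 and -0.52, SE 0.17) and Slc8a1 (0.70, SE 0.34 and -0.25, SE 0.32) were likewise above 0 in plain names and below 0 in joined names. Klk1 was 183 to 233 CPM in 3 joined-name ABT UUO libraries and 248 to 367 CPM in 4 of IgG UUO, lower without overlap, beside 5.6% of all genes tested that did not overlap in those libraries. Pvalb was 96.3, 106, 0 and 7.20 CPM in plain-name ABT UUO and 0 in 3 of 4 plain-name IgG UUO libraries, with 52.2 CPM in the other. All joined-name libraries were at 0. For Tmem207 the values were 1.36 (SE 0.68) within plain and 0.21 (SE 0.49) within joined names, and that of Casr 0.98 (SE 0.44) and -0.31 (SE 0.45). Trpv5, Trpm6 and Atp2b1 were below 0 in both.

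In the Veptp arm Calb1 was 168, 345, 300 and 538 CPM in plain-name VeKO UUO and 120, 201, 160 and 38.1 CPM in plain-name VeWT UUO, while in joined-name libraries it was 22.8, 55.1, 37.7 and 30.6 CPM in VeKO and 43.0, 21.8, 55.5 and 30.9 CPM in VeWT. The log2 fold change of VeKO over VeWT was 1.36 (SE 0.36) within plain names, -0.05 (SE 0.28) within joined names and 1.14 (SE 0.54) pooled, and the pooled value of Calb1 moved to 0.67 without VeKO UUO replicate 4. For S100g it was 0.56 (SE 0.36) and -0.14 (SE 0.35), for Klk1 1.12 (SE 0.30) and 0.36 (SE 0.19), and for Tmem207 0.74 (SE 0.49) and -0.28 (SE 0.57). Mean Slc8a1 was 163 CPM in VeKO and 112 CPM in VeWT within plain names, but 32.8 and 34.2 CPM within joined names. Pvalb was 40.2, 41.8, 27.6 and 26.9 CPM in plain-name VeKO UUO and 20.1, 28.0, 7.52 and 0 CPM in plain-name VeWT UUO, and below 1 CPM in all 8 joined-name libraries. Reads of both Xist and Y-linked genes were present in 2 plain-name VeWT UUO libraries and 1 of VeKO UUO. In VeWT these were lower in Calb1 (38.1 and 120 against 160 and 201 CPM), S100g and Klk1, while Pvalb overlapped. In VeKO the library with such reads (Calb1 300 CPM) lay within the others (168 to 538 CPM). The part of these reads in the difference was not tested. In neither arm did any member separate the obstructed groups over all libraries, where 0.0313% of all genes tested did so in the ABTAA arm and 0.0168% in the Veptp arm. Over all genes 0% were called in either contrast.

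**Figure D4:**
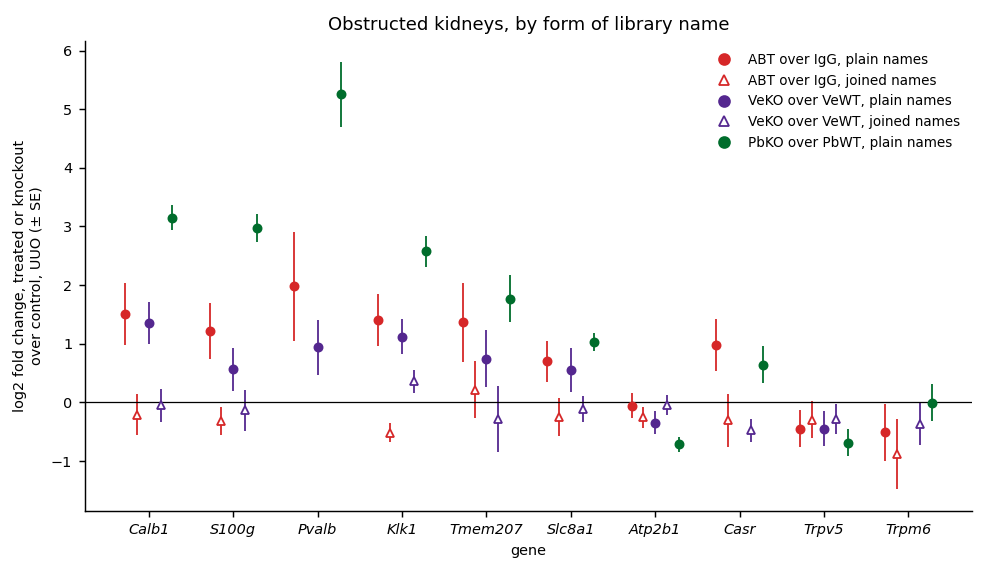
Log2 fold change of treated or knockout over control in obstructed kidneys, within plain names (circles) and within joined names (triangles), with 1 SE as the vertical line: circles of Calb1, S100g, Pvalb, Klk1 and Tmem207 lie above 0 in every arm, and their triangles lie between -0.52 and 0.36. Pvalb is not drawn for joined names, where libraries held at most 2 counts, and Casr and Trpm6 of the plain-name Veptp libraries did not pass the filter on low counts.

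In contralateral kidneys, whose levels entered the choice of Tmem207 alone, none of the 10 members was called between treated or knockout and control mice in any arm (edgeR, adjusted p = 1.00 for every member), and 0% of all genes were called in ABTAA, 0% in Veptp and 0% in Pdgfb. At an unadjusted p under 0.05 there were 0, 1 and 1 members in the ABTAA, Veptp and Pdgfb arms, and DESeq2 and edgeR's exact test also called 0. The members at an unadjusted p under 0.05 were Trpv5 in the Veptp arm (0.63, SE 0.26) and Atp2b1 in the Pdgfb arm (0.34, SE 0.14). Calb1 differed by 0.04 (SE 0.45) on the log2 scale between ABT and IgG, 0.14 (SE 0.57) between VeKO and VeWT and 0.17 (SE 0.19) between PbKO and PbWT. With the block in joined-name Veptp libraries, Klk1 was called higher in VeKO CL than in VeWT CL (1.01, adjusted p = 0.0265), where 4 of the 8 numbers that form the blocks carry different genotypes in the CL and the UUO library. Within joined names, Klk1 (1251 to 1354 against 582 to 830 CPM), Slc8a1 and Casr were higher in VeKO CL than in VeWT CL without overlap, 3 of 10 members beside 3.96% of all genes tested without overlap. Within plain names Pvalb and Tmem207 were lower in VeKO CL without overlap, 2 of 10 beside 20.4% of all genes. Klk1 and Slc8a1 overlapped there, with means of 1670 and 299.5 CPM in VeKO CL against 1765 and 308.4 CPM in VeWT CL.

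The difference between the 2 responses to obstruction was called for 2 of 5 tested members in the Pdgfb arm, where 8.56% of all genes were called (6.66% with a positive and 1.90% with a negative difference). This difference contains the contrast between obstructed kidneys that chose the set, so these calls are not free of that choice. Slc8a1 fell less in the libraries labelled PbKO (difference 0.88, SE 0.21, adjusted p = 0.00814), and Atp2b1 rose in PbWT and not in PbKO (difference -1.05, SE 0.19, adjusted p = 0.00119). The Slc8a1 call was lost after thinning to the shallowest library (0.59, adjusted p = 0.184), without TMM (0.57, adjusted p = 0.0786) and with all 12 groups in 1 fit (0.89, adjusted p = 0.766), and that of Atp2b1 with all 12 groups (-1.07, adjusted p = 0.255). Trpv5 (-0.21, SE 0.37), Casr (0.18, SE 0.41) and Trpm6 (0.28, SE 0.46) were not called. In the ABTAA and Veptp arms 0 of 5 members and 0% of all genes were called in each arm, with 0 and 1 members at an unadjusted p under 0.05 (Trpv5 in the Veptp arm, -0.91, SE 0.35) and 0 members by DESeq2 in each. For the genes that chose the set the differences in the Pdgfb arm were 2.98 (SE 0.28) for Calb1, 2.82 (SE 0.31) for S100g, 4.71 (SE 0.70) for Pvalb, 2.90 (SE 0.36) for Klk1 and 1.77 (SE 0.52) for Tmem207, as a description.

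Other genes of calcium and magnesium transport, 34 in all and none of them a member, were read beside the members. In IgG, 17 of 28 that passed the filter on low counts were called after obstruction (5 higher, 12 lower), in ABT 13 of 28 (4 and 9), in VeWT 12 of 31 (4 and 8), in VeKO 5 of 31 (1 and 4), in PbWT 18 of 30 (4 and 14) and in PbKO 6 of 30 (2 and 4). In the main fits each share was higher than the share over all genes given above. The list was chosen with earlier results of these data known, so this excess is a description and no test of the list. The VeKO count was 18 with the block and 8 without VeKO CL replicate 2, and the PbKO count was 2 without PbKO UUO replicate 4. The median log2 fold change of the list was -0.45 in IgG and -0.37 in PbWT, where that of all genes tested was 0.02 and 0.04.

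Egf, a hormone of the distal convoluted tubule that stimulates magnesium uptake through TRPM6, fell by 3.16 (SE 0.53) in IgG (adjusted p = 1.41e-05), 2.09 (SE 0.54) in ABT (adjusted p = 0.00348), 2.24 (SE 0.61) in VeWT (adjusted p = 0.00884), 4.02 (SE 0.26) in PbWT (adjusted p = 4.59e-11) and 0.96 (SE 0.23) in PbKO (adjusted p = 0.0141, lost without PbKO UUO replicate 2 or 4). The ABT call of Egf was lost within plain names (-1.31, adjusted p = 0.111) and without libraries with reads of Xist and Y-linked genes (-1.93, adjusted p = 0.0622), its VeWT call without name numbers 3, 4, 7 and 8 (-2.02, adjusted p = 0.0767). Anxa2, whose product with S100A10 brings TRPV5 to the membrane, rose in all 6 groups, by 1.22 in VeKO, a call lost within plain names (1.01, adjusted p = 0.652), to 1.88 in IgG. S100a10 rose by 1.27 (SE 0.16) in IgG, 1.19 (SE 0.17) in ABT, 0.89 (SE 0.14) in PbWT and 1.00 (SE 0.14) in PbKO. Kl, which encodes klotho, a coreceptor of FGF23, fell in all 6 groups, by 0.60 (SE 0.14) in PbKO, a call lost without PbKO UUO replicate 4, to 2.13 (SE 0.15) in PbWT, and Kcnj10, a potassium channel of the distal convoluted tubule, also fell in all 6, by 1.14 in PbKO, a call lost without PbKO CL or UUO replicate 4, to 1.62 in VeKO. In VeKO both calls were lost within plain names, where Kl was -0.37 (adjusted p = 0.825) and Kcnj10 -0.81 (adjusted p = 0.744). That of Kl was also lost with the 2 groups alone (-0.91, adjusted p = 0.0654) and without name numbers 3, 4, 7 and 8 (-0.69, adjusted p = 0.316). Within plain names Kcnj10 lost its VeWT call (-0.91, adjusted p = 0.0738), and without libraries with reads of Xist and Y-linked genes Kl lost its ABT call (-0.95, adjusted p = 0.0511). With all 12 groups in 1 fit the PbKO calls of Egf, S100a10, Kl and Pcbd1 were lost (adjusted p = 0.422 to 0.826). Pcbd1, a cofactor of the transcription factor HNF1, fell by 1.23 (SE 0.24) in IgG and 1.83 (SE 0.16) in PbWT, and by 0.55 (SE 0.15, adjusted p = 0.0329) in PbKO, a call of Pcbd1 lost without PbKO CL replicate 1, 2 or 3 or PbKO UUO replicate 2, 3 or 4. Trpv6, the other epithelial calcium channel, rose by 3.55 (SE 0.50) in VeWT (adjusted p = 3.88e-06) and 2.61 (SE 0.43) in PbWT (adjusted p = 2.56e-05).

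Between obstructed kidneys of the Pdgfb arm, 11 of 30 of these genes were called, 10 higher and 1 lower in the libraries labelled PbKO, beside the 18.6% of all genes. Egf was higher by 3.01 (SE 0.25, adjusted p = 1.78e-08), Kl by 1.49 (SE 0.15, adjusted p = 2.12e-07) and Pcbd1 by 1.27 (SE 0.16, adjusted p = 3.38e-06). Cldn10, a claudin of the thick ascending limb, was higher by 0.90 (SE 0.12) and Fxyd2, a subunit of the sodium pump, by 1.01 (SE 0.19). Trpv6 was lower (-1.03, SE 0.33, adjusted p = 0.0295), a call lost without any of PbKO UUO replicates 2, 3 and 4 or PbWT UUO replicates 2, 3 and 4. The difference between the responses was called for 8 of 30, among them Egf (3.06, SE 0.34), Trpv6 (-2.28, SE 0.68) and Cyp27b1, which makes active vitamin D (-2.25, SE 0.67). With all 12 groups in 1 fit the differences of Egf, Trpv6 and Cyp27b1 were not called (adjusted p = 0.231 to 0.363), nor were Pcbd1, Cldn10, Fxyd2 and Trpv6 between obstructed kidneys (adjusted p = 0.0864 to 0.344). The calls of Trpv6 and Cyp27b1 were lost when 11 and 13 of the 16 libraries were left out one at a time. The count of 8 was 4 without PbKO UUO replicate 3 or PbWT UUO replicate 2, and 5 without PbKO CL replicate 1 or 2, PbKO UUO replicate 2 or PbWT CL replicate 3 or 4. In the ABTAA and Veptp arms 0 of 28 and 0 of 31 were called between obstructed kidneys, with 3 and 1 at an unadjusted p under 0.05 and 0 by DESeq2 and by the exact test. Between the responses 0 were called in either arm, with 0 and 1 at an unadjusted p under 0.05 and 0 by DESeq2.

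**Figure D5:**
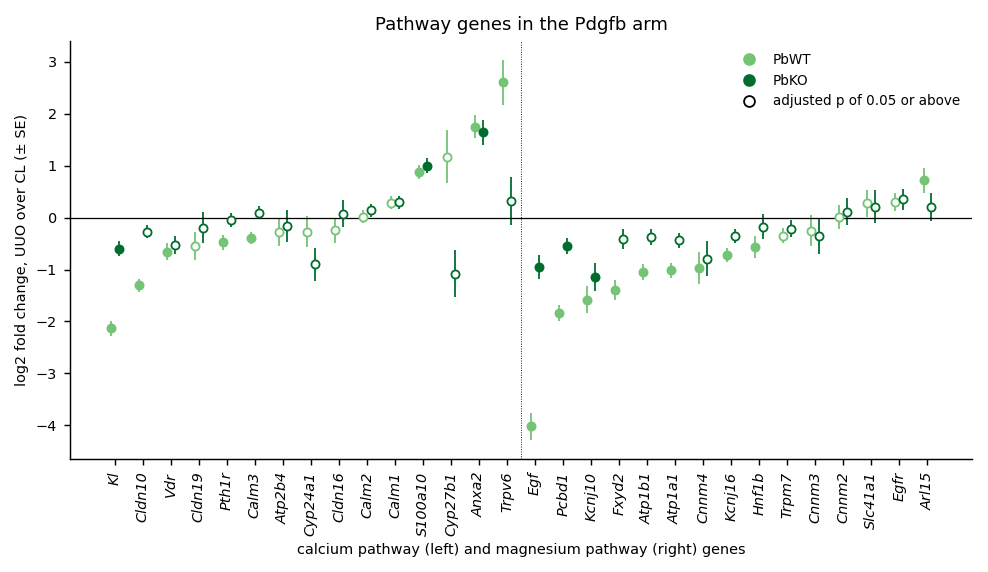
Log2 fold change of UUO over CL for the calcium and magnesium pathway genes tested in the Pdgfb arm, PbWT in light and PbKO in dark green, with 1 SE as the vertical line. Filled points were called, 18 in PbWT and 6 in PbKO, and Egf has the widest gap.

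Markers of the tubule segments also differed between these groups. The sum of 6 distal convoluted tubule markers was 931 to 1462 CPM in IgG CL and 344 to 593 CPM in IgG UUO, 1140 to 1488 CPM in PbWT CL and 413 to 464 CPM in PbWT UUO, and 662 to 1005 CPM in the libraries labelled PbKO UUO. Slc12a3, the thiazide-sensitive cotransporter, was higher in these than in PbWT UUO by 1.25 (SE 0.17, adjusted p = 1.51e-05), and 5 of the 5 markers tested were (Emx1 by 1.37 and Wnk4 by 1.01 among them). The 9 markers of connecting tubule and principal cells were 311 to 422 CPM in PbWT UUO and 386 to 520 CPM in PbKO UUO, and 1 of 9 was called there (Aqp3, 1.16, SE 0.22). The 5 thick ascending limb markers were all called higher in PbKO UUO (Ppp1r1a by 1.60, Slc12a1 by 1.28 and Kcnj1 by 0.97), as were 5 of 6 proximal tubule markers (Slc34a1 by 1.75, Slc22a6 by 1.52 and Lrp2 by 0.82) and 3 of 6 intercalated cell markers (Slc4a1 by 1.59, Slc26a4 by 1.15 and Atp6v1g3 by 0.97). Of the injured tubule markers, 2 of 5 were lower (Krt20, -1.08, and Vcam1, -0.87, the latter lost without PbKO UUO replicate 2 or PbWT UUO replicate 4), and their sum was 8397 to 16170 CPM against 12540 to 18420 CPM in PbWT UUO. With all 12 groups in 1 fit, Emx1, Wnk4, Aqp3, Ppp1r1a, Slc12a1, Kcnj1, Lrp2, Slc4a1, Slc26a4, Atp6v1g3, Krt20 and Vcam1 lost their calls (adjusted p = 0.0542 to 0.457), while Slc12a3, Slc34a1 and Slc22a6 did not, and Vcam1 was not called by DESeq2 (adjusted p = 0.102). These counts stand beside 12.0% of all genes called higher and 6.58% lower in this contrast. The part of segment mass and of injury in the members' values was not tested. Of 5 endothelial, 5 fibroblast and 5 macrophage markers, 2, 4 and 3 were lower in PbKO UUO, and 3 of 3 tested Klk1b copies were higher. In the ABTAA and Veptp arms edgeR's quasi-likelihood test called 0 of 36 segment markers each between obstructed groups, with 3 and 2 at an unadjusted p under 0.05. DESeq2 called 0 of 36 in each arm, and the exact test 0 of 30 in ABTAA and 0 of 35 in Veptp.

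Calb1 and Tmem207 were also compared with all genes over the 39 obstructed libraries, after the mean of each group and form of name was taken out. The genes most like Calb1, of 7563 ranked, were S100g (Pearson r = 0.884), Egf (0.882), Wfdc15b (0.866), Klk1 (0.844) and Rhcg (0.833), and Pvalb stood at rank 29 (0.749). Slc8a1 had r = 0.657, Trpv5 0.375 and Atp2b1 -0.202. Those most like Tmem207 were S100g (0.612), Wfdc15b (0.609), Calb1 (0.601), Ppp1r1a (0.586) and Nsun4 (0.583). The libraries share depth and scaling, so these values describe covariation between libraries within a group.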

How the data were processed

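Whole-kidney RNA was sequenced by Smart-seq3, and the submitters' processing notes name STAR 2.7.3a, UMI-tools 1.1.4, featureCounts from Subread 1.4.6-p5 and build mm10; the annotation is not given in the sources used here. The authors merged the wells of each sample and deposited 1 table of raw counts per gene, with 32245 genes and 75 libraries, which was used as deposited. Totals were 172827 to 2341800 counts a library, so genes of a few counts have wide counting error. Nothing in the labels says how the samples of a group were drawn beyond being separate kidneys, so p-values measure the spread between these samples.

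Each arm (4 groups) was fitted in edgeR 4.0.16 (R 4.3.3) with TMM scaling, the filterByExpr filter on low counts and the quasi-likelihood test, with Benjamini-Hochberg adjustment over all genes tested and a threshold of 0.05. The study's own test, edgeR's exact test, and DESeq2 1.42.0 were alternatives. The difference between responses is the interaction of treatment or genotype with obstruction. Where a level is plotted on a log scale, 1 CPM was added. A floor is 3 counts. The members and the gene lists were chosen with earlier results of these data known. All 10 members were named. Of the calcium, magnesium and segment lists, the 3 called genes of largest log2 fold change in a comparison were named, and for Calb1 and Tmem207 the 5 genes most alike among those with a mean count of at least 20. The promoter motifs were chosen after the values were seen.

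No 2 libraries held identical counts. In ABT and the Veptp arm, numbers in joined names are shared between CL and UUO libraries. After group means were removed, same-numbered libraries had correlations of 0.201 to 0.465 over 3 pairs of ABT and 0.101 to 0.557 over 8 pairs of the Veptp arm. The numbers were fitted as a block in those joined-name libraries, as an alternative setting. In the Veptp arm 4 of 8 pairs carried the same genotype in both kidneys, and in 4 of 8 a library matched its own number best. Pairs with different genotypes cannot come from the same mouse if the labels are right. Whether the numbers mark kidneys of the same mouse is thus not settled, and results with the block describe that setting only. The main fits treated CL and UUO libraries as independent. Tested on simulated data with 200 changed genes for treated against control in UUO, the fit recovered 73%, 50% and 62% of 2-fold changes in the ABTAA, Veptp and Pdgfb arms (9579, 11916 and 10923 genes) and 98%, 89% and 94% of 4-fold changes. The simulated mean of a gene was pooled over CL and UUO libraries. Genes that fall in UUO, as several members do, thus had more simulated than real counts there, and their recovery may be lower.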

Additional observations from a re-analysis of the deposited data

Results flagged for a closer look

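Of 120 combinations of member and group, 15 had a library set apart from its group by Dixon's test on CPM. The nominal rate of about 1 in 20 holds for independent, normally distributed values. Here the ABTAA and Veptp groups mix both forms of name, and single libraries recur across members. The count is therefore not compared with that rate. IgG UUO replicate 2 was the highest of 8 for Calb1 (280 CPM, next 93.4), S100g (1071, next 396), Pvalb (52.2, next 0), Klk1 (749.7, next 367) and Tmem207 (13.7, next 7.19). VeKO CL replicate 1 was the highest of 6 for S100g (3234 CPM, next 1104), Klk1 (2236, next 1354) and Trpm6 (43.1, next 13.2). The others were Pvalb in PbKO UUO replicate 4 (91.9 CPM), Trpv5 in ABT CL replicate 5 (68.9) and IgG UUO replicate 7 (65.5), Slc8a1 in VeWT CL replicate 2 (500.9) and VeKO UUO replicate 4 (317), Tmem207 in VeWT UUO replicate 2 (24.5) and, as the lowest, Atp2b1 in IgG CL replicate 2 (59.5).

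The response to obstruction differed between the libraries labelled PbKO and PbWT for 10 tested genes of the members and pathway lists (interaction in edgeR's quasi-likelihood test, log2 scale). This interaction contains the contrast between obstructed kidneys that chose the set. The difference was positive for Egf (3.06), Kl (1.53), Pcbd1 (1.29), Cldn10 (1.04), Fxyd2 (0.98), Slc8a1 (0.88) and Atp1b1 (0.68), and negative for Trpv6 (-2.28), Cyp27b1 (-2.25) and Atp2b1 (-1.05). Atp1b1 (adjusted p = 0.0475) lost its call when 13 of 16 libraries were left out one at a time, and Fxyd2 when PbKO UUO replicate 3 or PbWT UUO replicate 2 was.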

How the results depend on the processing

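Counts are of calls among 5 tested members or the pathway genes, and the cause of a change was not tested unless the setting itself leaves fewer libraries, counts or genes. Members called after obstruction were 4 in IgG and became 2 with joined names alone, 2 after thinning to the shallowest library and 2 without libraries with reads of Xist and Y genes, a setting added once the data had been seen. The 3 in ABT became 1 with a mean count of at least 20, 1 after thinning and 1 with the replicate block, and the 3 in VeWT became 1 without name numbers 3, 4, 7 and 8. The 1 in VeKO became 3 with the form of name as a covariate, 3 with joined names alone, 3 with the replicate block, 2 with all 12 groups in 1 fit, 2 with no filter, 2 without TMM, 2 with Xist as a covariate, and 0 with plain names alone, after thinning or without those numbers. The 4 in PbWT became 2 after thinning, and the 2 in PbKO became 0 with all 12 groups in 1 fit, 1 with a mean count of at least 20 and 1 after thinning. In CL, 1 member was called in the Veptp arm with the block. Pathway counts in ABT (13) became 7 with plain names alone and 5 without libraries with reads of Xist and Y genes. In VeWT (12) they became 22 with the form as a covariate, 7 with plain names alone, 5 after thinning and 4 without those numbers. In VeKO (5) they became 19 with the form as a covariate, 18 with joined names alone, 18 with the block, 11 with all 12 groups, 8 with Xist as a covariate, 2 with the 2 groups alone, 2 without those numbers and 0 with plain names alone. With all 12 groups in 1 fit they became 11 in PbWT and 2 in PbKO, 2 between obstructed kidneys of the Pdgfb arm, and 0 for the difference between responses, where members also became 0. That pathway difference was 5 with a mean count of at least 20 and 5 after thinning, and that member difference 1 after thinning and 1 without TMM. With no filter 1 pathway gene was called between obstructed kidneys in the ABTAA arm. The Calb1 difference between ABT and IgG in UUO was -0.21 within joined names.

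With single libraries left out, counts of members ranged from 1 to 2 in VeKO and 1 to 2 in PbKO, and pathway counts from 5 to 8 in VeKO, 2 to 8 in PbKO and 4 to 9 for the difference in the Pdgfb arm. Among values that were not called the sign turned 97 times, 51 of them with a library left out. It did so by more than the replicate SD for Pvalb in CL of the Veptp arm (0.35 within joined names, -0.63 pooled) and for the Slc8a1 difference between responses there (-0.95 within joined names, -0.82 with the block, 0.11 pooled). Trpm6 did not pass the low-count filter in the ABT fit with the block. Apart from the calls and counts given here and in the report, the block changed no call of a member. The Pdgfb arm has no joined names and could not be fitted by form, and its PbKO UUO group has no library without reads of Xist and Y genes. Members of few counts (Pvalb, Tmem207, Trpm6 and Casr) are limited by depth.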
